A study of Mus musculus with 7 samples.

Results

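The B cells of the deep cervical lymph nodes (dCLN) were compared between 5xFAD and wild-type (WT) mice. A cell was a barcode with exactly 1 productive immunoglobulin heavy chain, which gave 3374 cells in the WT library and 3904 in the 5xFAD library, 7278 of the 19869 such cells in all 7 libraries of the study. The study sequenced B cell receptors of single cells from deep cervical, superficial cervical and inguinal nodes of both genotypes, with 1 library for each node and genotype and 1 library that mixed them all. All mice were females of 10 to 11 months. In 5xFAD mice, used to model Alzheimer disease, mutant human APP is expressed from the Thy1 promoter, which is active in neurons, and amyloid deposits form in the brain. The WT mice are labelled only as wild type. Each library combined hashtagged cell suspensions of more than 87% viability, and the hashtags were not used here, so animals within a library could not be told apart. With 1 library per side there was no replicate check, and what follows compares libraries. Genotype and library cannot be told apart.

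Deep cervical nodes drain lymph from the head and neck, including the borders of the brain. A B cell joins a V, a D and a J segment into its heavy chain gene and a V and a J segment into its light chain gene, and the joint of the heavy chain encodes the third complementarity-determining region (CDR3), the most variable part of the binding site. After antigen contact, B cells in germinal centres mutate their V regions and can switch from IgM and IgD to IgG, IgA or IgE. Cells that descend from 1 founder share these joints and form a clone.

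The WT library held 8304 contigs of 4109 barcodes and the 5xFAD library 9211 contigs of 4411 barcodes, all productive and none from a T cell receptor locus. The median number of heavy chain UMIs (molecules counted once) per cell was 9 in WT and 13 in 5xFAD, and of light chain UMIs 26 and 31. Barcodes that carried several heavy chains (5.62% and 5.27% of those with any) were not counted as cells. The libraries shared 28 cell barcodes, and 0 of these had the same heavy chain junction in both. Intervals in parentheses are exact 95% Clopper-Pearson intervals for a share, and intervals derived from them for a difference, which is always 5xFAD minus WT in percentage points. They cover counting error only, treat cells as independent, and say nothing of the variation between animals or libraries. Of the 13 shares on which the comparison was set up, 1 had a difference with an interval of one sign: the mutated share of IgG2c cells. Over all the 82 shares compared, which overlap one another, the number was 19.

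The same IGHV genes led both libraries. IGHV1-26 (GRCm38 chromosome 12, 114788372 to 114788805, minus strand) was used by 5.54% of WT and 6.38% of 5xFAD cells, IGHV9-3 by 4.74% and 3.94%, IGHV3-6 by 3.47% and 3.87%, IGHV1-81 by 3.47% and 3.15%, and IGHV8-8 by 3.38% and 3.56%. Of the 38 IGHV genes that reached 1% in either library, 3 (7.89%) differed by 1.5-fold or more, of which 2 (5.26%) were higher in 5xFAD, and the median ratio over the 38 was 1.000. The counting interval of the ratio was apart from 1 for 4 of the 38 (10.5%). Among them were IGHV2-2 (ratio 0.722, 0.540 to 0.962) and IGHV1-80 (1.36, 1.00 to 1.85), both within 1.5-fold.

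IGHV14-3 (chromosome 12, 114059845 to 114060321) was used by 30 WT cells (0.889%) and 65 5xFAD cells (1.66%), a ratio of 1.87 with a counting interval of 1.20 to 2.99. It stood at 1.28% in the WT and 1.91% in the 5xFAD superficial cervical library, and at 1.09% and 1.28% in the inguinal ones. The 5xFAD library was the higher of each pair, by little in the inguinal nodes. The labels do not say whether nodes of 1 genotype came from the same animals. IGHV1-42 was used by 25 WT cells (0.741%) and 47 5xFAD cells (1.20%), a ratio of 1.62 whose interval of 0.980 to 2.75 held 1. The calls shared by the near-identical genes IGHV1-62-2 and IGHV1-71 were lower in 5xFAD, with 39 and 26 cells (1.16% and 0.666%, ratio 0.576, 0.337 to 0.971). Their shares in the other 4 libraries lay between 1.04% and 1.14%, near the WT value. With barcodes of identical heavy and light chain junctions counted as 1 cell, the ratios of these 3 were 1.79, 1.66 and 0.615.

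By family, among the 2996 WT and 3542 5xFAD cells with exactly 1 light chain, the large IGHV1 family held 56.8% and 58.7% (difference 1.92, -0.504 to 4.34). The small IGHV7 family held 48 WT cells (1.60%) and 30 5xFAD cells (0.847%), a difference of -0.755 (-1.34 to -0.203), and the other 4 libraries lay between 0.554% and 0.881%. The WT dCLN was thus the highest of the 6 libraries for IGHV7, and its difference to 5xFAD was -0.675 with identical barcodes counted once. IGHV15 was at 2 cells in WT and 13 in 5xFAD (0.0668% and 0.367%, difference 0.300, 0.0559 to 0.567). Over all cells, its gene IGHV15-2 was at 6 and 14 cells, a ratio of 2.02 with an interval that held 1 (0.728 to 6.40). IGHV2 stood at 7.84% and 6.41% (difference -1.43, -2.72 to -0.164).

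Among light chain V genes, IGKV10-96 led both libraries, in 5.11% of WT and 5.25% of 5xFAD cells with 1 light chain. IGKV1-117 followed in WT at 3.87%, against 3.02% in 5xFAD, and IGKV6-23 followed in 5xFAD at 3.50%, against 2.64% in WT. The lambda gene IGLV1 (chromosome 16, 19085017 to 19085500) was used by 3.54% and 3.30%, IGKV6-15 by 3.40% and 3.08%, and IGKV6-17 by 2.54% and 3.05%. Lambda light chains made up 4.51% of the WT and 4.04% of the 5xFAD cells, a difference of -0.469 (-1.49 to 0.533), and lay between 4.50% and 5.11% in the other 4 libraries. Of the 44 light chain V genes at 1% or more, 6 (13.6%) differed by 1.5-fold or more, 5 of them (11.4%) higher and 1 (2.27%) lower in 5xFAD.

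IGKV6-20 (chromosome 6, 70335841 to 70336507) had the lowest ratio, with 43 WT and 21 5xFAD cells (1.44% and 0.593%, ratio 0.413, 0.233 to 0.712). In the other nodes it did not keep one order between genotypes, at 1.17% in WT and 0.834% in 5xFAD in the superficial cervical and at 0.302% and 1.30% in the inguinal libraries. IGKV13-85 (chromosome 6, 68930269 to 68930734) had the highest ratio, with 31 and 68 cells (1.03% and 1.92%, ratio 1.86, 1.20 to 2.94). Its shares were 1.97% and 2.09% in the superficial cervical and 1.26% and 2.07% in the inguinal libraries, so the WT dCLN was the lowest of the 6. IGKV4-57-1, IGKV4-57 and IGKV15-103 had ratios of 1.65, 1.60 and 1.52, with intervals that held 1. IGKV8-30 had a ratio of 1.56 with an interval just above 1 (1.01 to 2.47). A further gene among the most used, IGKV1-135, stood at 3.44% and 2.48% (ratio 0.723, 0.537 to 0.970), and the whole IGKV1 family at 11.5% and 9.01% (difference -2.48, -3.99 to -0.980). With each paired clone counted once, 3 of 44 light chain V genes were past 1.5-fold.

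Both libraries also held cells with 2 light chains, 9.60% in WT and 8.22% in 5xFAD (difference -1.38, -2.72 to -0.0504), and cells without one, 1.60% and 1.05%. Such barcodes can be 1 B cell with both alleles expressed or a doublet, and these were not told apart.

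**Figure D1:**
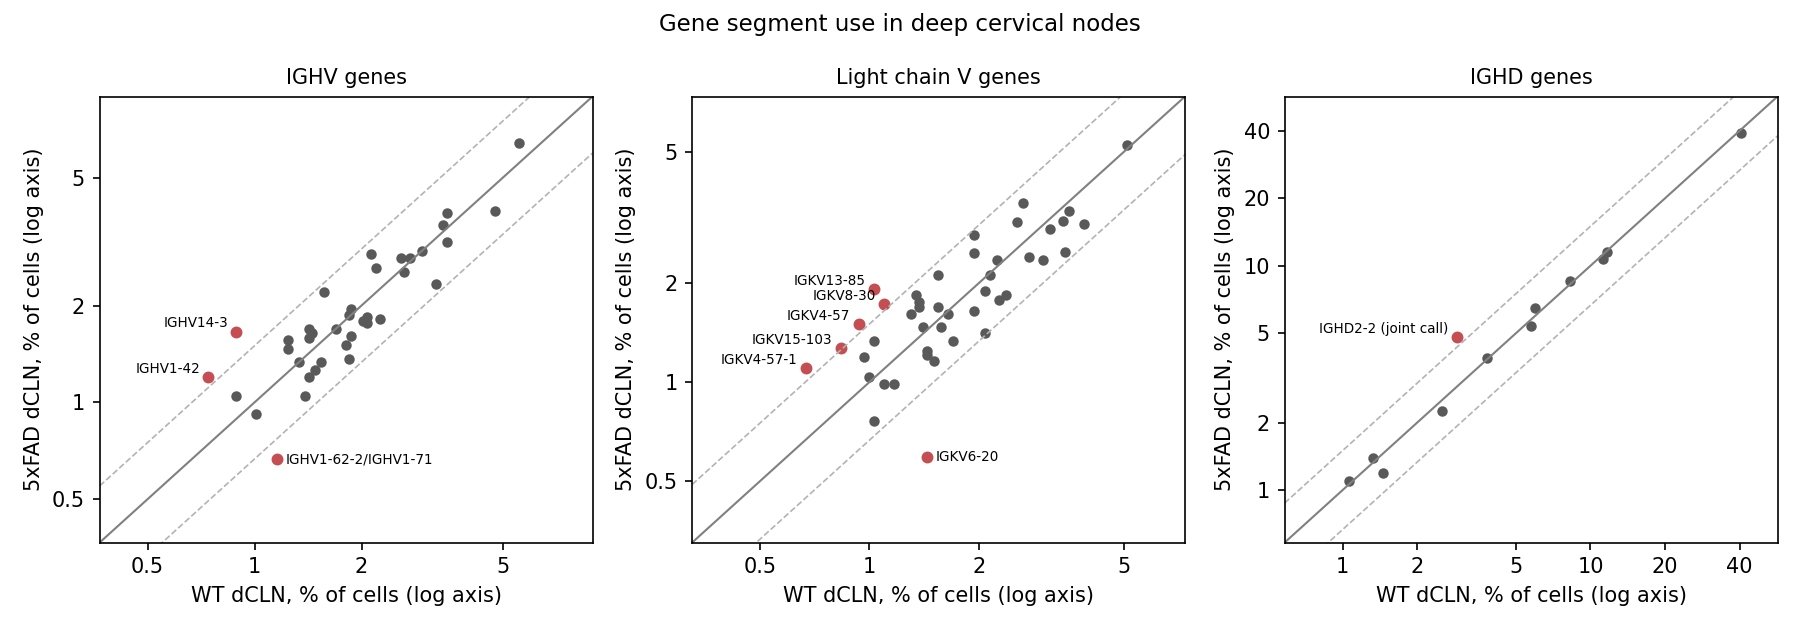
Each point is a gene at 1% or more of cells in at least 1 library, by its share of WT dCLN cells (x axis) and of 5xFAD dCLN cells (y axis), both log axes. The solid line marks equal shares and the dashed lines 1.5-fold. Red points are beyond them: 3 IGHV genes, 6 light chain V genes and 1 IGHD name.

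Heavy and light chains paired broadly, and V families paired mostly near the numbers their frequencies would give. The cells with 1 light chain used 1773 different pairs of an IGHV and a light chain V gene in WT and 1983 in 5xFAD, 21.7% and 24.5% of the pairs possible from the genes seen. Of these, 965 occurred in both libraries, which is 54.4% of the WT and 48.7% of the 5xFAD pairs and held 62.4% and 60.2% of the cells. Pairs seen in 1 cell numbered 1098 and 1208. The expected number of a pair was the product of the shares of its 2 genes, times the number of cells.

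Only 10 pairs reached 10 cells in a library, and 8 of them (80.0%) differed by 1.5-fold or more, 3 (30.0%) higher and 5 (50.0%) lower in 5xFAD. A pair entered this list by being frequent in either library, which favours pairs that differ, and 2 of the 10 had a counting interval apart from 1. Over this list of frequent pairs, the median of observed over expected was 1.83 in WT and 1.57 in 5xFAD. Entry by a high count also favours values above expectation, and 6 pairs reached 10 cells in WT and 4 in 5xFAD. These medians, and the values of single pairs below, cannot be separated from that selection. IGHV1-26 with IGKV6-32 (chromosome 6, 70074024 to 70074603) was found in 1 WT and 13 5xFAD cells, a ratio of 11.0 with an interval of 1.65 to 467. Relative to expectation it was at 0.300 in WT and 2.00 in 5xFAD, and 12 of the 13 cells remained when identical barcodes were counted once. Its shares in the other 4 libraries were 0.190%, 0.185%, 0.252% and 0.104%, between the WT dCLN (0.0334%) and the 5xFAD dCLN (0.367%). IGHV2-2 with IGKV17-127 was found in 12 WT and 3 5xFAD cells (ratio 0.211, 0.0383 to 0.784), at 4.25 and 1.80 times expectation. A clone of 4 WT cells is part of that count, and with identical barcodes counted once the numbers were 9 and 3.

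The other 8 pairs had intervals that held 1. IGHV3-6 with IGKV10-96 stood at 2 WT and 10 5xFAD cells, and IGHV1-26 with IGKV12-46 at 6 and 11. IGHV9-3 with IGKV1-117 stood at 12 and 5 cells, IGHV1-81 with IGKV1-135 at 10 and 5, IGHV8-8 with IGKV1-117 at 10 and 7, and IGHV1-26 with IGLV1 at 12 and 9. IGHV1-26 with IGKV10-96 (9 and 11 cells) and with IGKV1-135 (10 and 8 cells) differed by less than 1.5-fold. Pairs with 9 cells at most were also among the 8 most frequent of a library. These were IGHV2-2 with IGKV10-96 (9 WT and 1 5xFAD cells), IGHV1-26 with IGKV10-94 (9 and 8), IGHV1-26 with IGKV6-17 (7 and 9), IGHV9-3 with IGKV1-135 (4 and 9) and IGHV1-64 with IGKV14-111 (2 and 9). A pair chosen after its values were seen, IGHV4-1 with IGLV1, stood at 5.89 times its expected number in WT and at 5.50 times in 5xFAD, from 5 and 6 cells.

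Pairing between families, examined after seeing the data, stayed close to expectation. Of the 29 pairs of an IGHV and a light chain V family with at least 20 expected cells in both libraries, observed over expected ranged from 0.445 to 1.34 in WT and from 0.593 to 1.22 in 5xFAD. The counting interval was apart from 1 for 3 pairs in WT and 1 in 5xFAD, and for 0 in both. IGHV2 with IGKV1 had the lowest WT value, 0.445 (0.230 to 0.776, 12 cells), against 1.08 (0.675 to 1.63) in 5xFAD, a ratio of 2.42. It was 1 of 3 family pairs (10.3%) whose values differed by 1.5-fold or more. IGHV1 with lambda was below expectation in WT (57 cells for 76.6 expected) and stood at 0.798 (0.620 to 1.01) in 5xFAD. It was below 1 in the other nodes too. The values were 0.620 in WT and 0.819 in 5xFAD superficial cervical, and 0.853 and 0.714 in inguinal libraries.

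**Figure D2:**
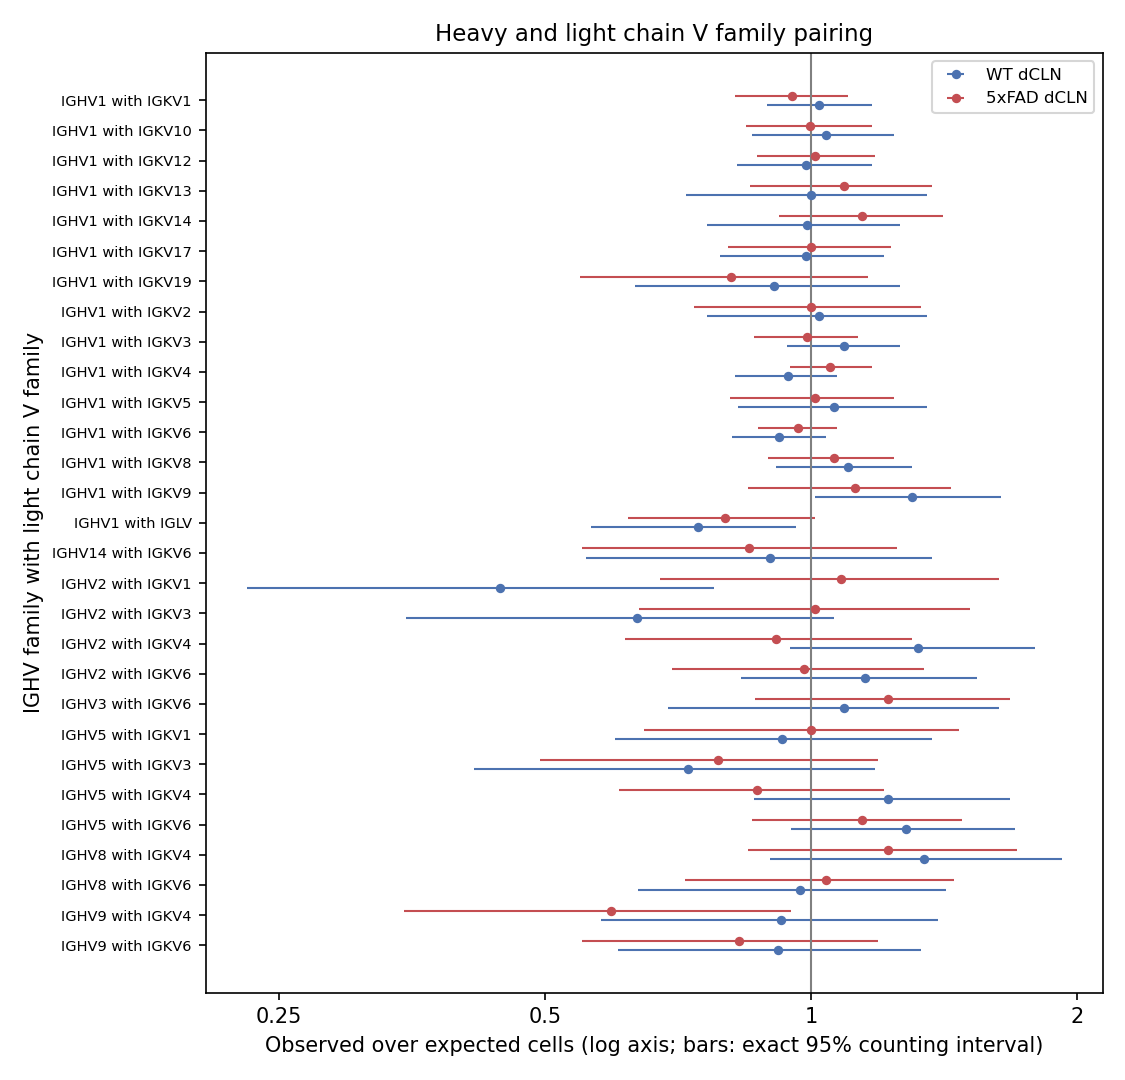
Observed over expected number of cells (x axis, log) for each pair of an IGHV family and a light chain V family with at least 20 expected cells in both dCLN libraries, with exact 95% counting intervals as bars that treat the expected number as known. Most intervals cross 1 in both libraries. IGHV2 with IGKV1 is the pair farthest to the left, in WT.

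D segments were used in nearly the same proportions. A D segment was named in 3023 WT and 3535 5xFAD cells, and none was named in 10.4% and 9.45%. Calls that named several D genes, in 1171 WT and 1369 5xFAD cells, were counted under the first name. A share below can thus cover a group of alike segments. IGHD1-1 (chromosome 12, 113482170 to 113482192), the most used D gene, stood at 40.6% and 39.2% of cells with a D call (difference -1.35, -3.75 to 1.05). It was followed by IGHD4-1 at 11.7% and 11.5%, IGHD2-4 at 11.2% and 10.7%, IGHD2-3 at 8.27% and 8.54%, IGHD2-1 at 5.99% and 6.45%, and IGHD2-5 at 5.76% and 5.37%. IGHD3-2 stood at 3.84% and 3.88%, IGHD3-3 at 2.51% and 2.26%, IGHD2-10 at 1.46% and 1.19%, IGHD3-1 at 1.32% and 1.39%, and IGHD2-12 at 1.06% and 1.10%. Each of these 11 differed by less than 1.5-fold. Where the call named 1 D gene only, IGHD1-1 stood at 56.8% of 1852 WT and 57.2% of 2166 5xFAD cells.

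The remaining name at 1% or more, 1 of 12 (8.33%), was IGHD2-2, which stood first in joint calls only. It covered 87 WT cells (2.88%) and 170 5xFAD cells (4.81%), a ratio of 1.67 (1.28 to 2.19). None of these cells named IGHD2-2 alone: 54 WT and 116 5xFAD cells were called IGHD2-2, IGHD2-7 or IGHD2-9, and the others shared the call with IGHD2-7, in part with IGHD2-3 too. The difference therefore belongs to a group of alike D segments. Over D matches of at least 8 bases the ratio was 1.76 (1.30 to 2.40), and with identical barcodes counted once 1.67. The same joint call stood at 3.41% in WT and 4.51% in 5xFAD in the superficial cervical libraries and at 3.31% and 4.31% in the inguinal ones, so the 5xFAD share was above the WT share in each node. Whether nodes of 1 genotype came from the same animals is not given in the labels. CDR3s with this call had a mean of 12.6 ± 2.03 residues in WT and 12.5 ± 2.26 in 5xFAD (SD over cells), with 19.2% and 21.7% tyrosine.

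D segments can be read in 3 codon phases, of which 1 encodes a tyrosine-rich stretch in most mouse D genes. That phase was used by 70.3% (67.7 to 72.8) of WT and 72.4% (70.0 to 74.7) of 5xFAD cells with an IGHD1 segment, and by 84.0% of both with an IGHD2 segment. CDR3s read in it held 25.5% tyrosine for IGHD1 in both libraries, against 11.6% and 11.2% in the hydrophobic phase. IGHD4 had no such preference, with 36.4% and 36.8% of cells in the corresponding phase. By J gene, IGHJ3 was used by 21.4% of WT and 23.5% of 5xFAD cells (difference 2.03, 0.0917 to 3.97), IGHJ2 by 33.0% and 33.1%, IGHJ4 by 26.7% and 24.9% and IGHJ1 by 18.8% and 18.5%.

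Heavy chain CDR3s, counted without the conserved residues at either end, were alike in length and charge. The mean length was 12.1 ± 2.69 residues in WT and 12.1 ± 2.63 in 5xFAD (SD over cells). CDR3s of 15 or more residues made up 18.1% and 18.6% (difference 0.491, -1.31 to 2.29). Short CDR3s of 8 or fewer residues made up 9.69% and 8.25% (difference -1.44, -2.79 to -0.110), with the other 4 libraries between 7.83% and 9.47%. Net charge, from arginine and lysine against aspartate and glutamate, was positive in 24.7% and 24.4% (difference -0.274, -2.28 to 1.72), and mean hydropathy was -0.677 ± 0.586 and -0.682 ± 0.585.

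The joints were also alike in their added bases. Between V and D, 4.24 ± 3.03 N bases (bases added without a template) were present in WT and 4.12 ± 2.95 in 5xFAD, and between D and J 3.03 ± 2.60 and 3.03 ± 2.61. Joints without N bases at either side of the D segment made up 1.19% of WT and 1.84% of 5xFAD cells with a D call (difference 0.648, 0.0315 to 1.26), and between 1.36% and 2.26% in the other 4 libraries.

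Of the 20 amino acids, 0 differed by 1.5-fold between the libraries (0%), over 40840 WT and 47380 5xFAD residues. Tyrosine led with 20.7% and 21.1% (difference 0.357, -0.182 to 0.896), followed by alanine (12.8% and 12.7%), aspartate (10.6% and 10.5%), glycine (9.84% and 9.93%) and arginine (9.35% and 9.14%). Serine made up 6.53% and 6.55%, phenylalanine 5.68% and 5.87%, valine 3.87% and 3.83%, threonine 3.32% and 3.36%, leucine 2.82% and 2.61%, and methionine 2.41% and 2.22%. Tryptophan, at 2.59% and 2.81%, was the 1 amino acid with a difference of one sign (0.223, 0.00690 to 0.439). Among unswitched cells its interval held 0 (-0.0132 to 0.433). The other 4 libraries lay between 2.77% and 2.88%, above the WT dCLN. Proline made up 1.98% and 2.11%, asparagine 1.96% and 1.99%, glutamate 1.86% and 1.73%, isoleucine 1.25% and 1.22%, lysine 0.901% and 0.829%, histidine 0.867% and 0.872%, glutamine 0.502% and 0.494%, and cysteine 0.147% and 0.156%.

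Among switched cells, with 1669 WT and 1977 5xFAD residues, 2 amino acids (10.0%) passed 1.5-fold. Glutamine stood at 4 WT and 20 5xFAD residues (0.240% and 1.01%, difference 0.772, 0.231 to 1.35), and methionine at 52 and 37 (3.12% and 1.87%, difference -1.24, -2.34 to -0.197). Residues of 1 CDR3 and of 1 clone are not independent, so the intervals of residue shares, here and over all cells, are too narrow. Switched cells had 17.9% and 19.4% tyrosine (difference 1.46, -1.12 to 4.02).

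**Figure D3:**
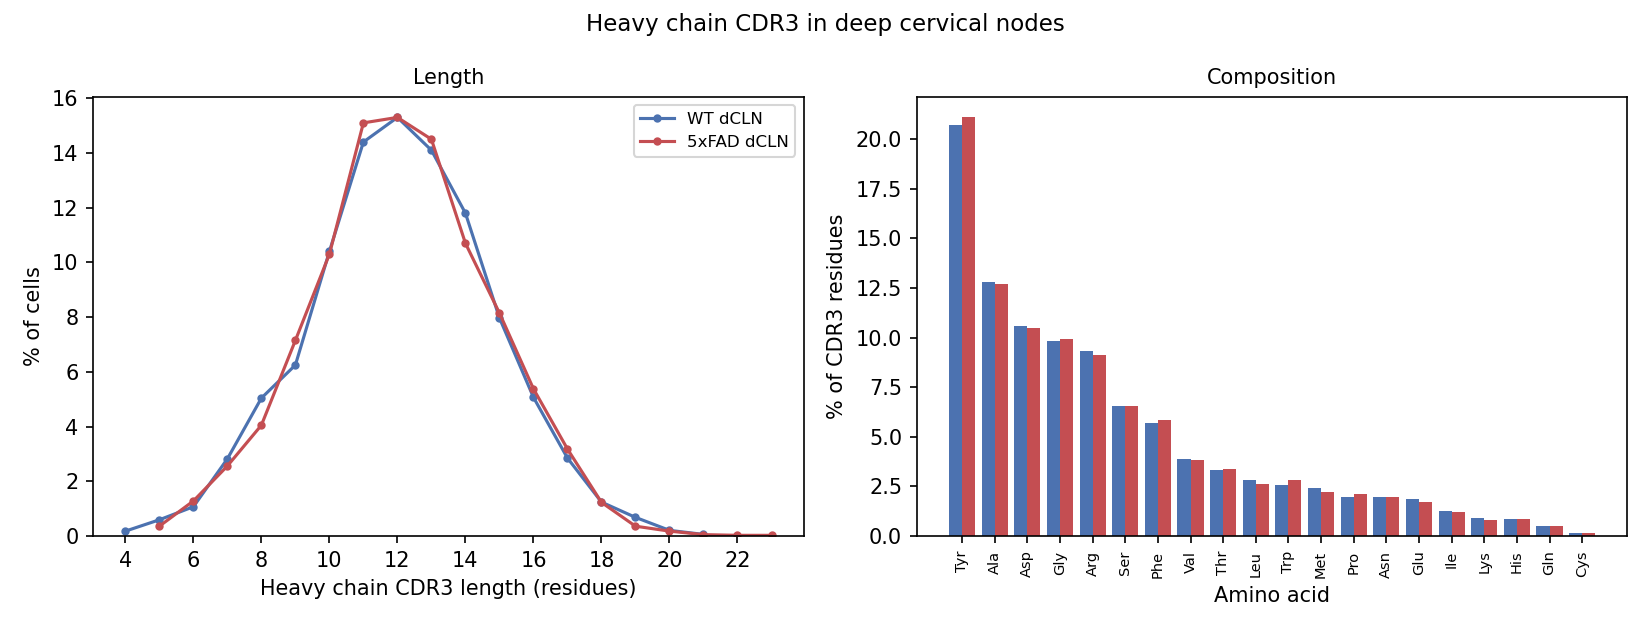
Left, share of cells (y axis, %) by heavy chain CDR3 length (x axis, residues). Right, share of each amino acid among all heavy chain CDR3 residues (y axis, %), with blue for WT and red for 5xFAD dCLN in both panels. The curves nearly coincide, with a peak at 12 residues, and tyrosine is the most frequent residue in both libraries.

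V mutation was described within isotypes, since the mix of isotypes differed between the libraries. Of cells with an isotype call, IgM made up 69.2% in WT and 80.1% in 5xFAD and IgD 26.7% and 15.8%, and of switched cells IgG1 made up 9.56% and 20.1% and IgG2c 40.4% and 22.6%. Median heavy chain UMIs were 10 in WT and 14 in 5xFAD IgM cells, and 7 and 8 in IgD cells. Whether depth bears on the IgM and IgD calls was not tested. IgM cells had a mean of 0.0350% mutated V bases in WT and 0.0256% in 5xFAD, and 95.5% and 95.6% of them had none. These means include sequencing errors and unlisted alleles, and also a few cells with more mutation, up to 4.78% in WT and 4.76% in 5xFAD. IgM cells with at least 1% mutation made up 0.873% (20 of 2291) and 0.613% (19 of 3097), a difference of -0.259 (-0.791 to 0.223). Among IgD cells they were 2 of 886 in WT (0.226%) and 0 of 609 in 5xFAD, which allows a share of up to 0.493% by a limit of 3 counts and of up to 0.604% by the exact interval.

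IgG2c was the 1 isotype whose share of cells with at least 1% mutation differed with an interval of one sign. This subclass, which C57BL/6 mice have in place of IgG2a, is favoured by interferon gamma. At least 1% mutation was present in 81.8% of the WT IgG2c cells (69.1 to 90.9, 45 of 55) and in 55.6% of the 5xFAD ones (38.1 to 72.1, 20 of 36), a difference of -26.3 (-46.0 to -5.42), although the intervals of the libraries overlapped. The mean was 3.33% ± 2.73 in WT and 2.45% ± 2.47 in 5xFAD (SD over cells). Unmutated cells numbered 8 and 6, and cells with 1 or 2 mutated bases 2 and 10. Cells with 3 to 9 mutated bases numbered 19 and 6, and those with 10 or more 26 and 14. At a threshold of 2% the difference was -7.22, with an interval that held 0 (-28.8 to 14.7). With each paired clone counted once the difference was -23.3 (-43.8 to -1.40), and with identical barcodes counted once -22.4 (-43.0 to -0.843). In the superficial cervical libraries 81.6% of WT and 85.7% of 5xFAD IgG2c cells passed 1% (difference 4.08, -20.0 to 21.8). In the inguinal libraries 4 of 5 WT and 0 of 3 5xFAD IgG2c cells passed it (difference -80.0, -99.5 to 7.60). Whether the nodes differed in this was not tested.

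The other switched isotypes did not differ beyond counting error in their mutated share. For IgG1, associated with T helper type 2 help, it was 69.2% (9 of 13 cells) in WT and 84.4% (27 of 32) in 5xFAD, a difference of 15.1 (-12.5 to 47.5), with means of 2.28% ± 1.70 and 2.38% ± 1.53. For IgG2b it was 60.4% (29 of 48) and 60.7% (37 of 61), a difference of 0.239 (-19.0 to 19.7), with means of 2.33% ± 2.42 and 2.05% ± 1.96. For IgA, the isotype of mucosal surfaces, it was 70.6% (12 of 17) and 63.6% (14 of 22), a difference of -6.95 (-36.8 to 25.8), with means of 3.42% ± 2.54 and 2.51% ± 2.21. IgG3 was found in 3 and 8 cells, of which 1 and 3 passed. With so few cells these intervals allow large differences in either direction.

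The difference in mean mutation of all switched cells, -0.652 percentage points, was -0.592 with the 5xFAD isotype means weighted by the WT mix of isotypes, and -0.487 with the WT means weighted by the 5xFAD mix. These reweighted values carry no interval, and the WT mean of IgG3 rests on 3 cells. Whether the mix of isotypes accounts for the difference was not tested. Light chain V regions of switched cells, without mismatches that most unswitched cells of the same gene shared, had means of 1.84% ± 1.88 in WT (113 cells) and 1.61% ± 1.67 in 5xFAD (140 cells). Across these cells the heavy and light chain mutation correlated with r = 0.657 and r = 0.659, a description of cells that share a library and in part a clone. Both chains were free of mutation in 13 WT and 16 5xFAD switched cells.

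**Figure D4:**
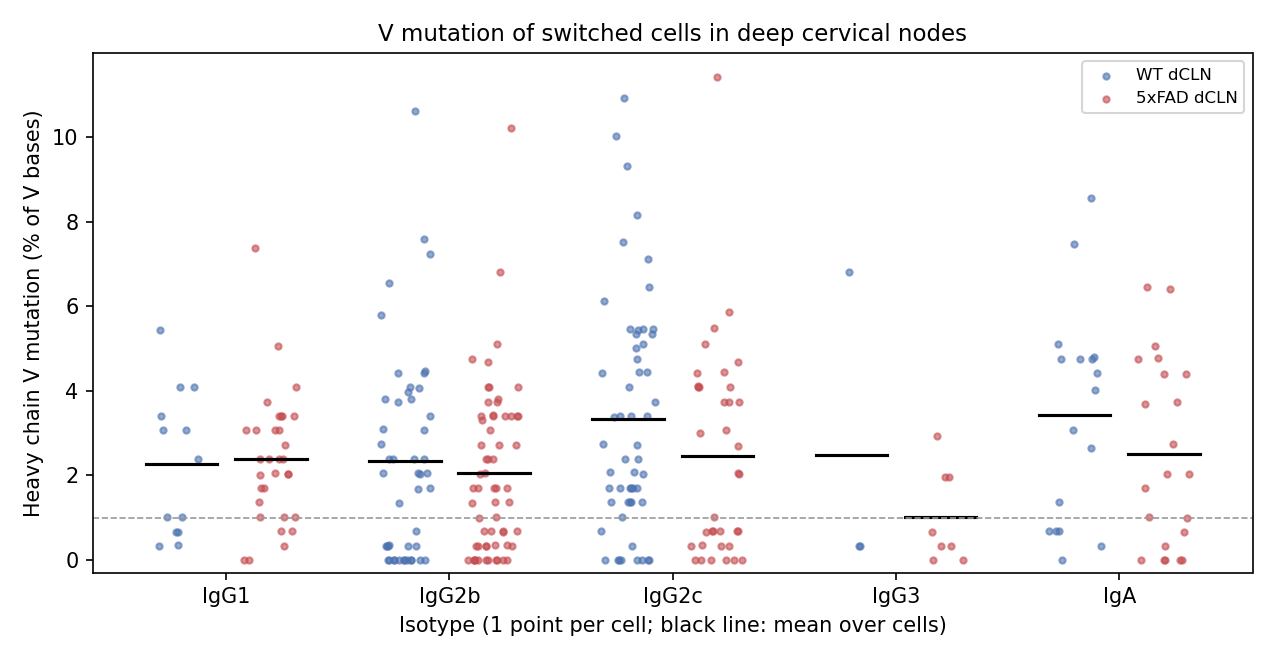
Heavy chain V mutation (y axis, % of V bases) of each switched cell in the dCLN, by isotype, WT in blue and 5xFAD in red. Black lines are means over cells and the dashed line marks 1%. Below that line lie 10 of 55 WT and 16 of 36 5xFAD IgG2c cells.

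The mutations of switched cells were compared by region, motif and kind. The 136 WT switched cells carried 1145 V mutations and the 159 5xFAD cells 1039. Replacements made up 66.5% and 69.5% of those in codons that could be scored (difference 3.00, -1.03 to 7.01). CDR2 was the most mutated region, at 6.15% and 3.96% of its bases, followed in WT by CDR1 at 4.07%, and FWR1, which forms part of the framework, was the least at 1.23% in both. CDR1 and CDR2 together held 29.8% of WT and 25.1% of 5xFAD mutations (difference -4.74, -8.57 to -0.881). Replacements among those CDR mutations made up 73.3% and 80.4% (difference 7.12, -0.0343 to 14.0). In 5xFAD, CDR1 was at 2.67% and the framework region FWR3 at 2.63%.

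Hotspots of the enzyme AID, the C of WRCY and the G of RGYW (W is A or T, R is A or G, Y is C or T; RGYW is WRCY on the other strand), held 31.6% of WT and 29.6% of 5xFAD mutations while they made up 8.40% and 8.34% of the V bases read. Transitions made up 59.7% and 64.4% (difference 4.74, 0.597 to 8.86). Germline T was the least mutated base, at 1.15% and 0.789%. Mutations of 1 cell and of 1 clone are not independent, so the intervals of these shares are too narrow.

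Clones were joined from cells with 1 light chain whose 2 chains each matched in V gene, J gene and length of the junction, with heavy chain junctions differing at 0.15 or less of their bases. This gave 202 clones of 2 or more cells in WT (431 cells) and 88 in 5xFAD (196 cells). They held 14.4% and 5.53% of the cells with 1 light chain (difference -8.85, -10.4 to -7.38). The share was 10.6% in WT and 7.65% in 5xFAD in the superficial cervical libraries. In the inguinal ones it was 5.74% and 6.89%, with 5xFAD the higher. Most of the dCLN clones were pairs of barcodes: 183 WT and 80 5xFAD clones had 2 cells.

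Almost all of them consisted of repeats of 1 receptor. Both junctions were identical throughout in 188 WT clones (93.1%) and 81 5xFAD clones (92.0%). Of the 182 and 77 clones without a switched cell, 171 and 74 had no V mutation in any cell. In 62 and 20 of them IgM and IgD calls occurred together. Their barcodes had fewer heavy chain UMIs than other unswitched cells, with medians of 7 against 10 in WT and of 9 against 13 in 5xFAD, and fewer light chain UMIs, 17 against 28 and 19 against 32. Barcodes of such pairs differed at a median of 12 of their 16 bases in both libraries, with a minimum of 4 in WT and 8 in 5xFAD. Sister cells and RNA of 1 cell under several barcodes cannot be told apart from these tables. Counting identical barcodes once removed 228 WT and 104 5xFAD barcodes and left 14 and 7 clones of 2 or more.

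A switched cell was present in 20 WT clones (9.90%, 6.15 to 14.9) and in 11 5xFAD clones (12.5%, 6.41 to 21.3), a difference of 2.60 (-5.27 to 12.1). More than 1 heavy chain junction sequence was present in 14 and 6 clones (6.93% and 6.82%, difference -0.113, -6.26 to 7.94). Such variants were found in 10 of the 20 WT and 4 of the 11 5xFAD switched clones, and in 4 of 182 and 2 of 77 unswitched ones. Switched and unswitched cells occurred together in 2 of 20 WT switched clones (10.0%) and in 5 of 11 5xFAD switched clones (45.5%), a difference of 35.5 (-0.529 to 67.8). With heavy chains alone, clones with more than 1 junction sequence were 26.3 percentage points more frequent in 5xFAD (17.3 to 34.9), which is a value that rests on joining cells of different light chains.

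**Figure D5:**
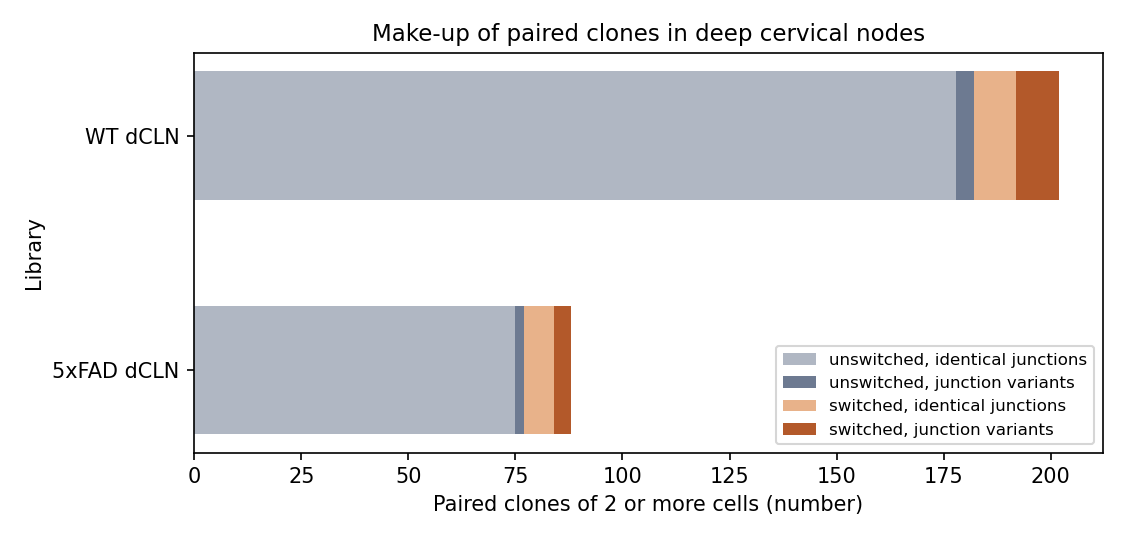
Number of paired clones of 2 or more cells (x axis) in each dCLN library, split by whether a clone held a switched cell and whether its heavy chain junctions were identical. Unswitched clones with identical junctions were 178 of 202 in WT and 75 of 88 in 5xFAD.

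The largest switched clone of WT and that of 5xFAD differed in how far their cells had diverged, which holds for these clones only. Over all switched clones, junction variants were present in 10 of 20 WT and 4 of 11 5xFAD clones (difference -13.6, -47.8 to 26.3). Both largest clones are shown by their heavy chain junctions, from the conserved cysteine codon to the conserved tryptophan codon. Capitals mark bases that differ from the commonest base of the clone at that position. The WT clone used IGHV1-26, IGHJ2 and IGKV9-120 (chromosome 6, 68049983 to 68050456) in 5 cells, 2 of IgG1, 2 of IgG2b and 1 of IgG2c, with V mutation between 4.08% and 4.42%. Its 5 cells held 2 junctions, the first in the IgG1 and IgG2c cells and the second in both IgG2b cells. They had 3 to 9 heavy chain UMIs and 2 different heavy chain sequences. Whether barcodes with the same sequence were separate cells was not tested.
WT cells 1 to 3: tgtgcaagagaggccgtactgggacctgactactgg
WT cells 4 and 5: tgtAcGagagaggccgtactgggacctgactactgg

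The 5xFAD clone used IGHV1-82 (chromosome 12, 115952538 to 115953005), IGHJ4 and IGKV4-57 (chromosome 6, 69575975 to 69576500) in 7 cells, 6 of IgG1 and 1 of IgM. Its cells had 7 different heavy chain junctions, 4 light chain junctions and V mutation between 1.02% and 3.06%. The IgM cell, which had 148 heavy chain UMIs, is the third below.
5xFAD cell 1: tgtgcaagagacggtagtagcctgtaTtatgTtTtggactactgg
5xFAD cell 2: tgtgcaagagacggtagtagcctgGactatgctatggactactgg
5xFAD cell 3: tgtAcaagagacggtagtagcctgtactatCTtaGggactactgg
5xFAD cell 4: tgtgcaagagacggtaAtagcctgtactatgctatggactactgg
5xFAD cell 5: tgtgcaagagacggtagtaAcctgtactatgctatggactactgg
5xFAD cell 6: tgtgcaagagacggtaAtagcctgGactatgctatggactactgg
5xFAD cell 7: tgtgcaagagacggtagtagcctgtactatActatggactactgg
The 7 junctions differed from the commonest bases at 1 to 4 of 45 positions, and a change was shared by cells 4 and 6, by cells 2 and 6 and by cells 1 and 3.

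The 5xFAD library held 3 other clones of 4 or more cells, of which 2 mixed switched cells with IgM. A clone of IGHV3-3, IGHJ1 and IGKV4-86 held 6 cells (3 IgG1, 1 IgG3 and 2 IgM) with 0 to 1.02% mutation, and a clone of IGHV1-53, IGHJ2 and IGKV6-13 held 5 cells (4 IgG2b and 1 IgM) with 1.02% to 3.40%. A clone of IGHV4-1, IGHJ1 and IGKV1-110 held 6 IgM cells with 1 V mismatch each. In WT, clones of IGHV1-81, IGHJ4 and IGKV12-44 (5 cells) and of IGHV2-2, IGHJ3 and IGKV14-100 (4 cells) held unmutated IgM and IgD cells with 1 junction each. Another held 4 cells of IGHV1-26, IGHJ4 and IGKV2-137 (3 IgM and 1 IgD, 0 to 1.02% mutation). The clone of IGHV1-18, IGHJ3 and IGKV4-55 consisted of 4 unmutated IgM cells with 192 to 394 heavy chain UMIs, far above the library's median of 9. The clone of IGHV2-2, IGHJ4 and IGKV17-127 held 4 cells with 3 junctions, 1 each of IgA, IgG2c and IgM and 1 without an isotype call.

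Between the libraries, 6 heavy chain junctions were identical, of 3109 different ones in WT and 3780 in 5xFAD. One was found with the same light chain junction in both, a joint of IGHV4-1 (chromosome 12, 113948282 to 113948796), IGHD4-1 and IGHJ1 paired with IGKV1-110 (chromosome 6, 68270485 to 68271267). It is printed because it had 0 N bases on either side of its D segment, and so, by its annotation, holds V, D and J bases only. It was carried by 1 WT and 5 5xFAD cells, all IgM, and the 5xFAD cells belong to the clone of 6 IgM cells above.
Shared junction: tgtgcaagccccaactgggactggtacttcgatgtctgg
Of the other 5 shared junctions, 0 had a light chain junction in common, and they were 21 to 30 bases long. An example is a 27-base joint of IGHV1-18 and IGHJ3 in which no D segment was named, carried by the 4 WT cells of high UMI number with IGKV4-55 and by 2 5xFAD cells with IGKV6-15.
Shared heavy chain junction of IGHV1-18: tgtgcaagaggggggtttgcttactgg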

How the data were processed

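B cell receptor libraries came from a Chromium 5' kit, per the labels' protocols. The submitters' processing notes list the build mm10, Seurat 4.1.0 and Cell Ranger 6.0.1, with no role for any of them. Each line of a deposited table is 1 assembled contig. Its UMI and read numbers are counts, per the file headers. The authors deposited V identity as a fraction and junction and N lengths as numbers of bases. Which germline set was used is not given in these sources.

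A barcode with a single productive heavy chain was taken as a cell, and no doublet caller was run. V mutation is the share of aligned V bases unlike the germline, in percent. V calls naming several genes (2.85% of WT and 2.77% of 5xFAD cells) kept the joint name in gene use. D calls naming several (1171 and 1369 cells) stood under the first. Clones were built by single linkage with a Hamming limit of 0.15 of the junction. Intervals are Clopper-Pearson 95% intervals for shares, square-and-add for differences and, for ratios, exact from the split of the counts. With 1 library per group no test was possible. Genes at 1% of cells, or pairs of 10 cells, in a library were called at 1.5-fold.

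Named features followed a rule: all isotypes and amino acids, IGHD genes at 1%, the most used V genes and pairs of each library, those past 1.5-fold, clones of 4 or more cells, and the junctions of the largest switched clone of each library. Families and family pairs were added after seeing the data. Members and lists were chosen with earlier results of these data known. Scripts were tested on simulated data. Coordinates are from GENCODE M21 on GRCm38 (mm10), which held 112 of the 118 names looked up. Python 3.11.15, pandas 2.3.3, NumPy 2.4.6, SciPy 1.17.1 and Matplotlib 3.10.9 were used.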

Additional observations from a re-analysis of the deposited data

How the results depend on the processing

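Of 100 recomputed values, 17 left the counting interval of the reported difference or moved a count by over 1.5 times. Share differences changed sign in 12 cases, in 0 of which the reported interval was of one sign. The IgG2c difference in mutated share was -7.22 (-28.8 to 14.7) at a 2% threshold, against -26.3, and lost its one sign there. The replacement share gained one, at 4.57 (0.263 to 8.85), with at least 3 heavy chain UMIs. IGHV genes past 1.5-fold numbered 3 of 38 tested as reported. They numbered 5 of 40 in cells with exactly 1 light chain, 5 of 59 at 0.5% or more and 0 of 38 at 2-fold. Light chain V genes numbered 6 of 44 as reported. With each paired clone counted once they numbered 3 of 44, at 0.5% or more 10 of 60 and at 2-fold 1 of 44. IGHD names numbered 1 of 12 as reported, 2 of 16 at 0.5% or more and 0 of 12 at 2-fold. When only 1 D gene was named they numbered 0 of 5. That setting leaves out IGHD2-2, the 1 name past 1.5-fold as reported, since no cell named it alone. The result was thus set by the filter and is not informative. Over D matches of at least 8 bases 1 of 8 passed. Pairs of V genes numbered 8 of 10 as reported and 5 of 10 at 2-fold. They numbered 4 of 6 with identical barcodes counted once and 4 of 6 with each clone counted once. With at least 3 heavy chain UMIs 5 of 7 passed. Among pairs of 5 or more cells, chosen after seeing the data, 107 of 140 passed. The number of pairs tested thus changed with the setting. No pair reached 20 cells in a library. With identical barcodes counted once, 14 WT and 7 5xFAD clones were left. The difference in the share of switched clones was then -14.3 percentage points, against 2.60. This count removes clones whose junctions are all identical. Several heavy junctions were thus present in 14 of 14 WT and 6 of 7 5xFAD clones left. The difference of -14.3 in that share is therefore set by the count and is not informative. With heavy chains alone the difference in clones with several heavy junctions was 26.3. The causes were not tested. Leaving out mismatches shared by most unswitched cells, also chosen after seeing the data, changed no call. No clone values exist with each clone counted once. No paired analysis was possible because the deep cervical comparison held 1 library per genotype. Pairing WT and 5xFAD libraries by node over all 3 nodes was not run here. Animals within a library could not be told apart, so no value carries the error between animals, and differences of a few cells (the pairs, IgG3, the switched clones) are limited by their numbers.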
